A study of Drosophila melanogaster with 9 samples.

Results

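Of the 7 genes known from flies as targets of the Hox protein Ultrabithorax (Ubx) in the developing appendages, blistered (bs) was transcribed at an appreciable level in the cultured cells studied here, and Distal-less (Dll), spalt major (salm), knot (kn), vestigial (vg), scute (sc) and achaete (ac) were silent or nearly so. The level of bs was close to the same with and without Ubx: its estimated change was at most 1.05-fold in any comparison, and no change of bs passed the test. The genes were chosen by name, as FlyBase symbols paired with the identifiers of the count files, and all 7 were found among 17559 genes per file.

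The data are read counts of poly(A)-selected RNA from 9 libraries of Drosophila melanogaster S2R+ cells, an established line of embryonic origin, in 3 groups of 3. They carried a control protein (nuclear green fluorescent protein, GFP), wild-type Ubx (Ubx-WT) or Ubx-N51A, in which the homeodomain has the change N51A, each through Gal4-UAS with an actin promoter. The tag on Ubx is unclear, since the protocols call it myc and the sample characteristics GFP. Per the protocols, each group had 4 replicates, of which 3 were selected by principal component analysis, which can narrow the spread on which the p-values rest. A mention of sorting in the file names differs from group to group, so sorting, if it refers to cells, and the expressed protein cannot be told apart.

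Libraries held 30967554 to 66828787 reads in genes. Ubx itself had 14, 8 and 89 reads in GFP replicates 1 to 3, between 69408 and 102681 in each Ubx-WT library and between 51719 and 145254 in each Ubx-N51A library, as the labels have it. Of 14 haemocyte genes listed, 10 passed the filter on low counts, and the summed level of the list was 1370 to 1500 CPM (counts scaled to 1e+06 reads in genes) over all 9 libraries. Most of that sum was Pxn, ush, crq and srp, at means of 465, 330, 258 and 232 CPM with GFP. He and eater averaged 0.742 and 1.92 CPM with GFP. Against GFP Col4a1 fell with both proteins (edgeR adjusted p = 0.0407 and 0.035), ush with Ubx-WT (0.0378), and no tested list gene rose. Below the filter, NimC1 had 2, 13 and 5 reads over the groups, lz 9, 8 and 4, and gcm 3, 31 and 4. Without the filter gcm rose with Ubx-WT (edgeR adjusted p = 0.00638). Of 6 wing disc epithelium genes listed, 4 passed (sd, crb, shg and Nrg) and 1 of those found did not, nub, and the summed level was 291 to 322 CPM. Muscle genes, of which 2 of 5 passed, summed to 72.2 to 80.6 CPM. Nearly all of that sum was Mef2, at a mean of 76 CPM with GFP, 76.8 with Ubx-WT and 74.2 with Ubx-N51A. The gene up had group means of 0.6 to 0.773 CPM, and Mhc, twi and Act57B were below the filter. The neuron list, with 5 of 5 passing, summed to 34.2 to 43 CPM with GFP, 42.9 to 54 CPM with Ubx-WT and 43.3 to 48.1 CPM with Ubx-N51A. Nearly all of that sum was elav, at a mean of 38.1 CPM with GFP, 45.4 with Ubx-WT and 43.1 with Ubx-N51A. Against GFP elav was not called with Ubx-WT (edgeR adjusted p = 0.0879) or with Ubx-N51A (edgeR adjusted p = 0.29). The fat body list, with 1 of 5 passing and Adh at 0 reads throughout, summed to 0 to 0.0454 CPM with GFP, 0.309 to 0.399 CPM with Ubx-WT and 0.0269 to 0.047 CPM with Ubx-N51A. Nearly all of the Ubx-WT sum was Fbp1, with 1, 54 and 2 reads over the GFP, Ubx-WT and Ubx-N51A libraries. Fbp1 was higher with Ubx-WT than with GFP (log2 fold change 5.06, edgeR adjusted p = 0.000192). It was lower with Ubx-N51A than with Ubx-WT (-4.23, edgeR adjusted p = 0.000691). Fbp1 passed the filter through its Ubx-WT libraries alone, so it had to be high there to be tested. What part the lists as wholes play in the other results was not tested.

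Ubx gives the third thoracic segment of the fly its identity, and it makes a haltere form where a wing would otherwise grow. It does so in the haltere disc by repressing genes that pattern the wing, among them salm, kn, vg, bs and the bristle-forming genes of the achaete-scute complex, and in the embryonic abdomen by repressing Dll, with which limbs begin. The homeodomain residue changed in N51A lies in the helix that contacts DNA. All 7 genes encode transcription factors or transcriptional co-regulators, and the counts address whether their RNA differed when Ubx or its mutant was present in cells that are not a wing or a haltere.

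**Figure D1:**
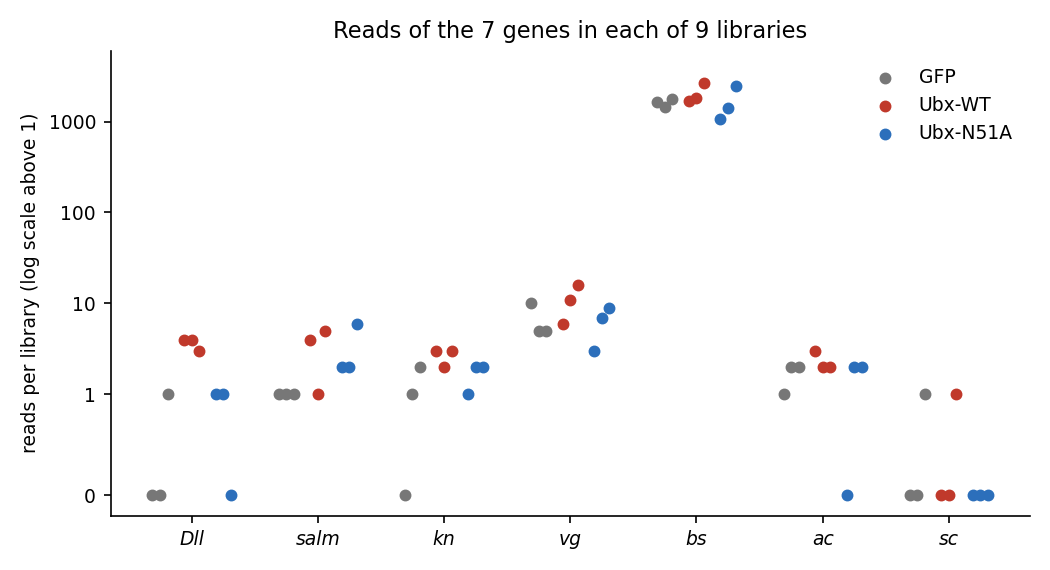
Reads of the 7 genes (horizontal axis) in each of the 9 libraries, on a vertical axis that is logarithmic above 1 read; each point is 1 library and colours give the group. The points of bs lie between 1072 and 2621 reads, those of vg between 3 and 16, and those of the other genes at 6 reads or fewer.

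The intervein gene bs encodes the fly serum response factor, a MADS-domain transcription factor that marks the cells between the wing veins and is also needed in tracheal terminal cells. It lies on chromosome 2R, 24342861 to 24376473, on the plus strand in BDGP6.54 (identifier FBgn0004101), with 4791 bases of merged exons. Reads of bs numbered 1632, 1458 and 1758 in GFP cells, 1675, 1803 and 2621 in Ubx-WT cells, and 1072, 1410 and 2488 in Ubx-N51A cells. After scaling by TMM, the trimmed mean of M-values, the levels were 37.1, 37.1 and 34.3 CPM in GFP cells, 39.8, 36 and 38.2 CPM in Ubx-WT cells, and 35.7, 37.9 and 39 CPM in Ubx-N51A cells. The ranges of the 3 groups overlapped in each comparison. In RNA of whole cultures, the share of cells that transcribe a gene and the RNA per cell cannot be told apart.

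The mean level of bs was 36.2 ± 1.64 CPM in GFP cells, 38 ± 1.94 CPM in Ubx-WT cells and 37.5 ± 1.68 CPM in Ubx-N51A cells (SD, n = 3). Between Ubx-WT and GFP bs changed by 0.07 on the log2 scale (SE 0.055; edgeR quasi-likelihood test, Benjamini-Hochberg adjusted p = 0.419), and its 95% interval ran from 0.968-fold to 1.14-fold. Between Ubx-N51A and GFP it was 0.06 (SE 0.056; edgeR adjusted p = 0.584), with an interval from 0.956-fold to 1.13-fold. Between Ubx-N51A and Ubx-WT it was -0.02 (SE 0.055; edgeR adjusted p = 0.932), with an interval from 0.911-fold to 1.07-fold. These p-values were adjusted over all 9207 genes that passed the filter, and none of the 3 was under 0.05 before adjustment. DESeq2 did not call bs either, with adjusted p-values of 0.573, 0.673 and 0.976 in the same order. A miss of the threshold does not show that the levels are equal; the intervals give the sizes of change that the 9 libraries leave possible.

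The precision of the bs value was set by both counting and replicate spread. Counting alone gave a coefficient of variation of 3.05% in the library with the fewest bs reads, and the biological coefficient of variation that edgeR estimated for bs was 4.79%, against a median of 5.22% over all tested genes. Of the 7 genes 1 could be tested, and it was called in none of the comparisons. The share of tested genes called in either direction was 16.6% for Ubx-WT against GFP, 8.09% for Ubx-N51A against GFP and 5.14% for Ubx-N51A against Ubx-WT.

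**Figure D2:**
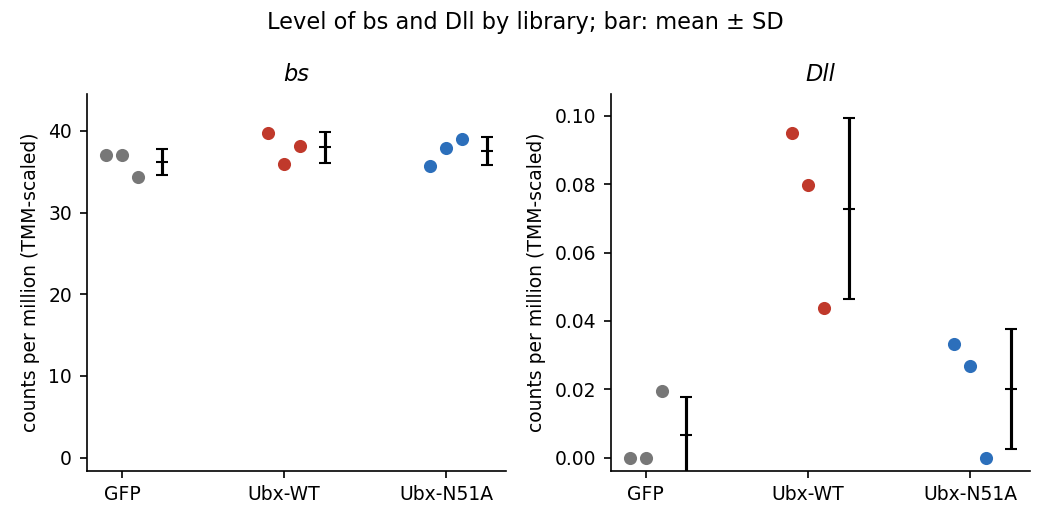
TMM-scaled CPM of bs (left) and Dll (right) in each library by group, on linear axes that include 0; points are libraries and black bars the mean ± SD of 3. For bs the groups overlap between 34.3 and 39.8 CPM, and for Dll the Ubx-WT points lie at 0.0437 to 0.0951 CPM, above all others.

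A gene annotated on the opposite strand of bs, asRNA:bsAS (FBgn0266046; chromosome 2R, 24351477 to 24369689, minus strand), is a noncoding RNA that lies within the bs gene. Its exons share 0 bases with the bs exons. It had 3, 3 and 8 reads in GFP cells, 10, 16 and 18 in Ubx-WT cells, and 3, 8 and 10 in Ubx-N51A cells. All Ubx-WT libraries stood above all GFP libraries, at 0.238 to 0.319 CPM against 0.0682 to 0.156 CPM. The log2 fold change was 1.38 (SE 0.393; edgeR adjusted p = 0.0301), while the change of bs did not pass the test; the difference between the changes of the 2 genes was not tested. The gene was let through the filter by its Ubx-WT libraries alone, since 0 libraries of the other groups reached the level required (0.224 CPM in 3 libraries); without the filter its adjusted p was 0.0445. The call was lost in DESeq2 (adjusted p = 0.117), without GFP replicate 1 (0.113), without GFP replicate 2 (0.104), without Ubx-WT replicate 2 (0.101) and without Ubx-WT replicate 3 (0.0765). The sources used here do not give the strand setting of the counting, so reads of unspliced bs RNA and of asRNA:bsAS cannot be told apart. With Ubx-N51A against GFP asRNA:bsAS had a log2 change of 0.61 (SE 0.457; edgeR adjusted p = 0.458). CG44812, a protein-coding gene on that strand, had 4, 12 and 5 reads over the GFP, Ubx-WT and Ubx-N51A libraries and was below the filter. Without the filter it was not called with Ubx-WT or Ubx-N51A against GFP (edgeR adjusted p = 0.487 and 0.962). Nor was CG44812 called between the Ubx proteins (edgeR adjusted p = 0.728).

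The limb gene Dll encodes a homeodomain protein that starts the distal part of legs and antennae (FBgn0000157; chromosome 2R, 24814822 to 24835667, plus strand). Dll had 0, 0 and 1 reads in GFP cells, 4, 4 and 3 in Ubx-WT cells, and 1, 1 and 0 in Ubx-N51A cells. The Ubx-WT libraries thus stood above all others, by a margin of 2 reads or more. Summed over libraries the ratio of Ubx-WT to GFP was 9.2, with an exact 95% binomial interval of 1.34 to 396, from 11 reads against 1. The ratio of Ubx-N51A to Ubx-WT was 0.223 (0.024 to 1.02), from 2 reads against 11. These intervals, like all others on summed reads here, cover counting error only. Dll did not pass the filter on low counts. In an edgeR fit without the filter its log2 fold change for Ubx-WT against GFP was 2.83, with an adjusted p = 0.116 over 14726 genes (0.0203 before adjustment). DESeq2 gave an unadjusted value of 0.0548 and no adjusted one. Even with Ubx-WT the level was 0.0729 ± 0.0263 CPM (SD, n = 3), which is 3 to 4 reads in a library.

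The gene salm encodes a zinc finger protein that responds to the growth factor Dpp in the centre of the wing (FBgn0261648; chromosome 2L, 11434311 to 11445614, minus strand). It had 1 read in each GFP library, 4, 1 and 5 reads in Ubx-WT cells, and 2, 2 and 6 in Ubx-N51A cells. The Ubx-N51A libraries stood above the GFP libraries in CPM, at 0.0538 to 0.0939 against 0.0195 to 0.0255, and the Ubx-WT libraries overlapped both. The ratio of summed reads to GFP was 2.79 (0.718 to 15.8) with Ubx-WT and 3.42 (0.881 to 19.3) with Ubx-N51A. Both intervals include a ratio of 1. Its neighbour and paralogue salr had 19, 13 and 10 reads over the GFP, Ubx-WT and Ubx-N51A libraries.

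The gene kn encodes a transcription factor of the COE family that specifies the region between the central wing veins and, in the lymph gland, the niche of blood cell precursors (FBgn0001319; chromosome 2R, 14772650 to 14807061, minus strand). It had 0, 1 and 2 reads in GFP cells, 3, 2 and 3 in Ubx-WT cells, and 1, 2 and 2 in Ubx-N51A cells. In CPM the Ubx-WT libraries stood just above the GFP libraries, from 0.0399 upward against 0.039 and lower. The ratio of summed reads was 2.23 (0.536 to 13.1), which includes 1.

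The gene vg encodes the co-activator that joins the DNA-binding protein Scalloped to switch on wing development (FBgn0003975; chromosome 2R, 12884201 to 12899385, plus strand). It was the most abundant of the 6 quiet genes by reads, with 10, 5 and 5 reads in GFP cells, 6, 11 and 16 in Ubx-WT cells, and 3, 7 and 9 in Ubx-N51A cells. The groups overlapped in each comparison. The ratio to GFP was 1.38 (0.769 to 2.54) with Ubx-WT and 0.975 (0.492 to 1.92) with Ubx-N51A. Its DNA-binding partner sd, in contrast, had 22157 reads over the GFP libraries. Per exon length, as TPM (reads per exonic kilobase, scaled to sum to 1e+06 in each library), the level of sd in GFP cells was 36.7 TPM and that of vg was 0.0756 TPM.

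The genes ac and sc encode proneural transcription factors of the basic helix-loop-helix type, which give cells the ability to form sensory bristles. They lie 25.1 kb apart on the X chromosome, ac at 370031 to 370947 (FBgn0000022) and sc at 396060 to 397497 (FBgn0004170), both on the plus strand. For ac there were 1, 2 and 2 reads in GFP cells, 3, 2 and 2 in Ubx-WT cells, and 0, 2 and 2 in Ubx-N51A cells, and the groups overlapped. For sc there was 1 read in GFP cells, 1 in Ubx-WT cells and 0 in Ubx-N51A cells, summed over 3 libraries each. A count of 0 over the Ubx-N51A libraries corresponds to a floor of 0.0229 CPM (3 reads over the group), and the exact 95% Poisson interval reaches 0.0281 CPM. CG32816, annotated on the opposite strand across both genes, shares 0 exon bases with either, and it had 37, 39 and 47 reads over the GFP, Ubx-WT and Ubx-N51A libraries.

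Across the 6 quiet genes together the summed reads were 12, 9 and 12 in GFP cells, 20, 20 and 30 in Ubx-WT cells, and 7, 14 and 19 in Ubx-N51A cells. In CPM these sums were 0.229 to 0.273 with GFP, 0.399 to 0.475 with Ubx-WT and 0.233 to 0.376 with Ubx-N51A. Of 18 edgeR tests of the 6 genes without the filter 0 passed at an adjusted p under 0.05, and 1 had an unadjusted p under 0.05, that of Dll above. DESeq2 called 0, with 0 unadjusted p-values under 0.05, and gave no adjusted p in 14 of the 18. Counted over all 7 genes, the CPM of the Ubx-WT libraries lay above that of GFP without overlap for 2, Dll and kn, where 14.4% of the 14726 genes with a read did so. For Ubx-N51A above GFP it was 1, salm (10.5% of all genes), and for Ubx-N51A below Ubx-WT 1, Dll (10.6%). In reads the kn groups touched, at 2. A fall below the GFP level of Dll, salm, kn or sc was not detectable at this depth. Their summed GFP reads gave 0.00743 to 0.0223 CPM, and 3 reads over that group correspond to 0.0223 CPM. For ac, with 5 reads or 0.0372 CPM over that group, there was little more room to see a fall.

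**Figure D3:**
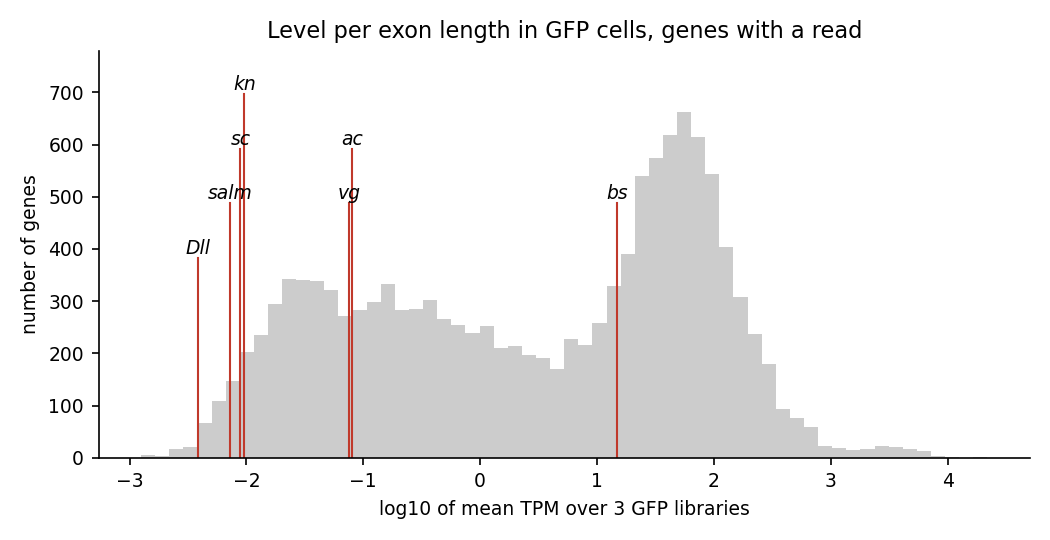
Histogram of the mean level per exon length (log10 TPM over the 3 GFP libraries) of the 12979 genes with a read in GFP cells; red lines mark the 7 genes, and line heights differ only to separate the names. The line of bs, at 14.8 TPM, lies at the foot of the right-hand peak of expressed genes, and the other 6 lie at or below 0.0801 TPM.

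On the TPM scale, bs stood at 14.8 ± 0.594 with GFP, 16.2 ± 0.794 with Ubx-WT and 14.9 ± 1.13 with Ubx-N51A (SD, n = 3). That placed bs above 57.3% of the 12979 genes with a read in GFP cells, whose median was 5.2 TPM. Next in the GFP cells came ac at 0.0801 ± 0.0302 TPM and vg at 0.0756 ± 0.0339 TPM, which did not differ beyond their spread and lay above 20.9% and 20.4% of genes. Below them kn (0.0096 ± 0.00887 TPM), sc (0.0089 ± 0.0154 TPM), salm (0.00721 ± 0.000924 TPM) and Dll (0.00387 ± 0.0067 TPM) overlapped in their spread. With Ubx-WT, Dll stood at 0.0452 ± 0.0164 TPM, above 16% of the genes with a read.

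The genes that act with these targets in the wing, leg and bristle networks were counted in 6 lists, written by name. The lists were chosen with earlier results of these data known. Their counts therefore describe the listed genes and are no independent test of the networks. Without the 7 genes the lists held 64 genes, of which 59 were found and 35 passed the filter. The genes not found, ap, wg, Dl, da and mtv, had no matching symbol, so their levels are not known. Counts of whole lists below include them among the genes not tested. With Ubx-WT against GFP 8 of the 35 rose and 6 fell, beside 8.72% and 7.83% of all tested genes. Their median log2 fold change was 0.036, against 0.001 over all tested genes. With Ubx-N51A against GFP 1 of the 35 rose and 3 fell (3.38% and 4.71% of all tested genes), with a median of 0.005 against 0.013. Between Ubx-N51A and Ubx-WT 1 was higher and 5 were lower with Ubx-N51A (1.23% and 3.91%), with a median of 0.013 against 0.006. The comparisons with GFP share the GFP libraries. Of the 35 genes, bi, ss and sca passed the filter through their Ubx-WT libraries alone, with 0 libraries of the other groups at the level required, so a gene had to be high there to be counted. In the fit without the filter, 58 of the genes had a read. Of these 8 rose and 5 fell with Ubx-WT against GFP (6.5% and 6.01% of all 14726 genes), 1 rose and 3 fell with Ubx-N51A against GFP (2.63% and 3.84%), and 3 were higher and 6 lower with Ubx-N51A than with Ubx-WT (1.3% and 3.17%).

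Among the wing field genes 5 of 10 were tested and 1 rose with each Ubx protein. Of all tested genes 8.72% rose with Ubx-WT and 3.38% with Ubx-N51A. The wing field gene was fng, whose product is a glycosyltransferase that modifies Notch at the border of the upper and lower wing surface. Its level was 0.838 to 1.14 CPM with GFP, 1.81 to 1.97 with Ubx-WT and 1.83 to 1.97 with Ubx-N51A, so that both Ubx groups lay above GFP. The log2 fold changes were 0.91 (SE 0.149; edgeR adjusted p = 0.0011) and 0.94 (SE 0.152; adjusted p = 0.0026). In the list of genes that read the Dpp signal, which holds salm, 3 of 8 were tested, and bi rose with Ubx-WT. The bi product is a T-box transcription factor that acts beside Salm in the wing. It had 1, 2 and 5 reads in GFP cells, 19, 29 and 38 in Ubx-WT cells and 2, 3 and 4 in Ubx-N51A cells, so the Ubx-WT libraries stood apart. The log2 fold change was 3.11 (SE 0.374; edgeR adjusted p = 0.000101) against GFP, and -2.91 for Ubx-N51A against Ubx-WT (SE 0.367; adjusted p = 0.000304). Without the filter, which bi passed through Ubx-WT alone, the adjusted p-values were 1.04e-06 and 5.39e-06. The edgeR adjusted p of fng with Ubx-WT, which passed in every group, was also smaller in that fit (0.000124).

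In the vein and intervein list, which holds kn and bs, 10 of 17 genes were tested. With Ubx-WT 1 rose and 1 fell, where 8.72% and 7.83% of all tested genes did so. The vn gene, which encodes a neuregulin-like ligand of the EGF receptor, rose from 2.2, 2.75 and 2.89 CPM with GFP to 3.75, 5.02 and 4.3 CPM with Ubx-WT. The log2 fold change of vn was 0.74 (SE 0.132; edgeR adjusted p = 0.00203), and vn was lower with Ubx-N51A than with Ubx-WT by a log2 fold change of -0.98 (adjusted p = 0.000682). The aos gene, which encodes a secreted inhibitor of that receptor, fell with both proteins, with a log2 fold change of -0.92 for Ubx-WT (edgeR adjusted p = 0.000288) and -0.58 for Ubx-N51A (adjusted p = 0.014, and 0.0626 without Ubx-N51A replicate 1). The receptor gene Egfr was below the filter, at 13, 41 and 9 reads over the GFP, Ubx-WT and Ubx-N51A libraries. Without the filter it was lower with Ubx-N51A than with Ubx-WT (edgeR adjusted p = 0.0373). Against GFP Egfr was not called in that fit with Ubx-WT (edgeR adjusted p = 0.0643) or with Ubx-N51A (edgeR adjusted p = 0.786).

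In the proneural list 6 of 14 genes were tested, none of them a proneural gene: l(1)sc, the gene of the same complex as ac and sc, had 0 reads in all libraries, and ase, another gene of the complex, had 1, 2 and 3 over the groups. The proneural gene ato, which acts in chordotonal organs and the eye, had 9 reads over the Ubx-WT libraries (0.0475 to 0.0598 CPM in each) and 0 with GFP and with Ubx-N51A; in the edgeR fit without the filter its adjusted p was 0.0589 against GFP and 0.128 between the Ubx proteins. For amos the reads were 1, 0 and 1. Of the other genes in the list, sens had 3, 3 and 1 reads over the groups, while some regulators of ac and sc were abundant. The GATA factor gene pnr, an activator of ac and sc in the thorax, stood at 191 TPM in GFP cells, its partner ush at 96.1 TPM, and emc, which encodes an inhibitor of proneural proteins, at 155 TPM. With Ubx-WT 3 of the 6 fell, where 7.83% of all tested genes fell. The log2 fold change was -0.39 for the repressor gene hairy (hry; SE 0.039, edgeR adjusted p = 2.3e-05), -0.16 for pnr (adjusted p = 0.00819) and -0.12 for ush (adjusted p = 0.0378). Of these ush was named after its values were seen, and its call was lost in 9 of 14 alternatives, up to an adjusted p = 0.16. With Ubx-N51A hry had 106 to 111 CPM and with GFP 134 to 143 CPM; this fall passed the test too (edgeR adjusted p = 0.000225), at -0.34 on the log2 scale.

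In the leg and antenna list, which holds Dll, 6 of 14 genes were tested and 3 rose with Ubx-WT, where 8.72% of all tested genes rose. The bab2 gene, which encodes a BTB-domain transcription factor of the leg and antennal segments, rose from 3.82, 3.97 and 4.09 CPM to 9.98, 9.01 and 7.93 CPM. Its log2 fold change was 1.17 (SE 0.111; edgeR adjusted p = 1.28e-05). The ss gene, which encodes a bHLH-PAS protein that sets antennal identity, had 5, 1 and 4 reads in GFP cells, 17, 21 and 30 in Ubx-WT cells and 2, 3 and 7 in Ubx-N51A cells. Its log2 fold change with Ubx-WT was 2.47 (SE 0.372; edgeR adjusted p = 0.000608, and 8.93e-05 without the filter, which ss passed through Ubx-WT alone). Both were lower with Ubx-N51A than with Ubx-WT, bab2 by -0.97 (edgeR adjusted p = 0.000114) and ss by -2.18 (adjusted p = 0.00249). The zinc finger gene tsh, named after its values were seen, rose by 0.13 (adjusted p = 0.028), a call lost in 5 of 14 alternatives, up to an adjusted p = 0.098.

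**Figure D4:**
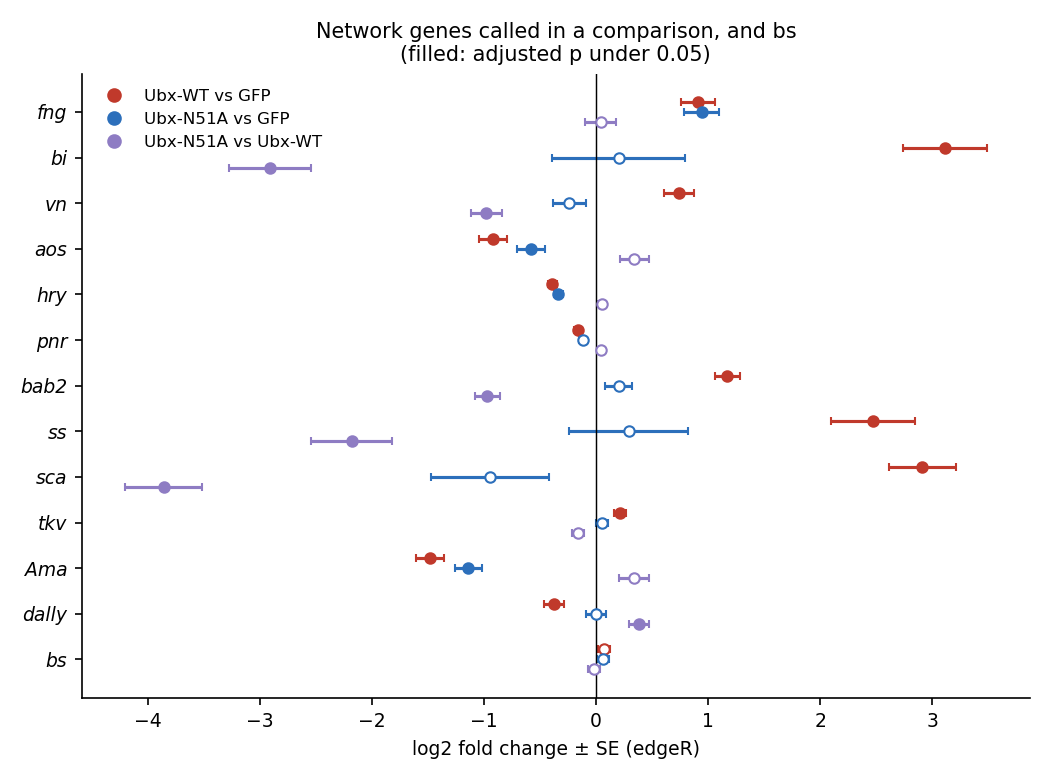
Log2 fold changes (points) with their SE (bars) in the 3 comparisons for the network genes named by rule and for bs; filled points have an edgeR adjusted p under 0.05. The points of bs lie within 0.08 of 0 and are open, while sca, bi and ss have filled points on both sides of 0.

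In the list of other genes described downstream of Ubx, 7 of 10 were tested; with Ubx-WT 3 rose and 2 fell, while dpp and Con did not pass the test. The shares of all tested genes that rose and fell were 8.72% and 7.83%. Cpr47Ee of this list, below the filter, had 1, 15 and 1 reads over the GFP, Ubx-WT and Ubx-N51A libraries. In the fit without the filter it rose with Ubx-WT against GFP (log2 fold change 3.24, edgeR adjusted p = 0.0472), where 6.5% of all genes rose. Between the Ubx proteins Cpr47Ee was not called in that fit (edgeR adjusted p = 0.108). The sca gene, whose secreted product spaces sensory organ precursors that ac and sc select, rose from 8, 6 and 4 reads with GFP to 37, 58 and 70 reads with Ubx-WT and stood at 1, 2 and 6 with Ubx-N51A. The edgeR adjusted p of sca was 2.43e-05 for Ubx-WT against GFP (log2 fold change 2.91), and 1.31e-05 between the Ubx proteins, where Ubx-N51A was lower. It passed the filter through Ubx-WT alone, and without the filter these values were 2.23e-09 and 8.03e-11. That fit also lowered the edgeR adjusted p of Ama for Ubx-WT against GFP, from 4.62e-06 to 3.34e-17, though Ama passed the filter in every group. The smaller values without the filter are therefore no added support for sca, bi or ss. The Dpp receptor gene tkv rose by 0.21 (edgeR adjusted p = 0.0199; 0.0781 when GFP replicate 2 was left out and 0.0851 when Ubx-WT replicate 2 was), and the remaining rise was tsh. The glypican gene dally, which shapes the spread of Dpp, fell from 11.2, 11.4 and 11.7 CPM with GFP to 7.44, 9.53 and 9.35 CPM with Ubx-WT, and stood at 10.6 to 11.9 CPM with Ubx-N51A. Its log2 fold change was -0.38 with Ubx-WT (SE 0.089; edgeR adjusted p = 0.0113), and it was higher with Ubx-N51A than with Ubx-WT by 0.38 (adjusted p = 0.0261, up to 0.0953 over the 14 alternatives). The immunoglobulin-domain gene Ama fell with Ubx-WT, from 14.2 to 19.4 CPM with GFP to 5.42 to 6.94 CPM, and with Ubx-N51A to 6.55 to 8.28 CPM (edgeR adjusted p = 4.62e-06 and 0.00013).

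The 12 genes that pass the filter and lie next to the 7 on either side included 2 that fell with Ubx-WT and 2 that fell with Ubx-N51A, both against GFP, where 7.83% and 4.71% of all tested genes fell; none of the others rose. They were the same pair each time, AspRS and NAT1, which flank vg at 1033 and 16609 bases. AspRS encodes the aspartyl-tRNA synthetase and changed by -0.23 with Ubx-WT (SE 0.052; edgeR adjusted p = 0.00758) and by -0.18 with Ubx-N51A (adjusted p = 0.0469, up to 0.173 over the 14 alternatives). NAT1 encodes a translation factor and changed by -0.15 (SE 0.045; edgeR adjusted p = 0.0418, up to 0.141) and -0.18 (adjusted p = 0.0287, up to 0.125). Leaving out any GFP library ended both NAT1 calls and the AspRS call with Ubx-N51A. The muscarinic receptor gene mAChR-A, 2157 bases beyond bs, was lower with Ubx-N51A than with Ubx-WT by -1.23 (edgeR adjusted p = 0.0404), a call lost in 8 of 14 alternatives (up to 0.159). BEAF-32, an insulator protein gene whose end lies 20 bases from kn, had 9404 reads over the GFP libraries, where kn had 3.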

How the data were processed

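Each deposited file lists the raw counts of 1 library, by FlyBase identifier, from 75 bp single-end reads. The submitters' processing notes name Trimmomatic 0.36, STAR, HTSeq, FastQC, DESeq2 and DESeq, and the builds dm6 and BDGP6; the sources used here do not give settings, strand option or annotation release. Library sizes and tests leave out the 5 summary rows (reads outside genes 1.5% to 2.27% of the deposited counts, ambiguous 3.11% to 3.32%, several alignments 3.26% to 5.05%). Symbols matched 17252 of 17559 identifiers; the Ensembl 115 annotation (BDGP6.54, in dm6 coordinates) gave positions and merged exon lengths.

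The analysis used edgeR 4.0.16 under R 4.3.3: filterByExpr on the groups (9207 genes), TMM factors, and 1 quasi-likelihood fit over 9 libraries with the group as the only term. Calls needed an adjusted p (Benjamini-Hochberg, over all tested genes) under 0.05. SE is the log2 fold change over the square root of F. Genes below the filter are given as reads, with exact 95% Poisson or binomial intervals. DESeq2 1.42.0, other size factors, no filter, the 6 libraries compared, a replicate block and leaving out each library were alternatives. The code was tested on simulated counts. No pair of replicate libraries was alike within sampling noise (chi-square per degree of freedom at least 6.28).

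The 7 genes, the lists and the tests were chosen with earlier results of these data known. Named beside the 7 are Ubx, up to 2 called genes per list, direction and comparison with the smallest adjusted p, and overlapping and flanking genes. Other genes (nub, sd, salr, Egfr, emc, l(1)sc, ase, ato, amos, sens, ush, tsh, dpp, Con, Cpr47Ee and markers) were named after their values were seen. The most similar genes were to be named only for called members, and none was called. The replicate numbers of the titles did not pair the libraries, nor did those in the file names, which differ from them.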

Additional observations from a re-analysis of the deposited data

How the results depend on the processing

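The log2 fold change of bs stayed uncalled under 14 of 14 alternatives in each comparison. It ran from 0.036 to 0.109 for Ubx-WT against GFP (adjusted p 0.271 to 0.73) and from 0.022 to 0.094 for Ubx-N51A against GFP (0.406 to 0.871). For Ubx-N51A against Ubx-WT it ran from -0.052 to 0.020, and its sign turned without Ubx-WT replicate 1 (0.019) and without Ubx-N51A replicate 1 (0.020); the cause was not tested. Without the TMM factors all 21 group levels of the 7 genes stayed within 1 SD; leaving out 1 of 3 libraries cannot move a mean by that much. Of 63 levels without 1 library, 6 moved by over 1.5 times, all of quiet genes: without GFP replicate 3, Dll and sc with GFP went to 0 and kn to 0.0127 CPM; sc with Ubx-WT went to 0 without replicate 3; with Ubx-N51A, Dll went to 0.0301 without replicate 3 and ac to 0.0157 without replicate 2. Without each library in turn the genes called numbered 990 to 1741 for Ubx-WT against GFP, 362 to 823 for Ubx-N51A against GFP and 302 to 474 for Ubx-N51A against Ubx-WT. The counts moved by over 1.5 times in the first comparison without GFP replicate 2 (1015) or Ubx-WT replicate 3 (990), in the second without GFP replicate 1 (440), 2 (362) or 3 (490) or Ubx-N51A replicate 2 (398), and in the last without Ubx-WT replicate 3 (302). Under the other alternatives they numbered 1369 to 1842, 607 to 953 and 393 to 658. Of 30 calls of named genes other than the 7, Fbp1 and Col4a1, 20 held under all 14, 10 were lost at least once and 0 changed sign. Same-numbered libraries deviated together with a correlation over 0.1 in 1 of 9 pairs, and 2 of 9 libraries correlated best with their own number. With the replicate block 1369, 607 and 401 genes were called, and bs stood at 0.072, 0.057 and -0.015. The file names carry other numbers than the titles, and by them GFP replicate 2 shares its number with no library. Of the 7 pairs with 1 file number 1 had a correlation over 0.1. A replicate block by these numbers, chosen after seeing the data, leaves 3 residual degrees of freedom; 618, 178 and 294 genes were called, bs in none of the comparisons, and 11 of the 30 calls were not made. The depth, 31 to 66.8 reads per CPM, limits what can be said of the 6 quiet genes.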
